A study of Mus musculus with 6 samples.

Results

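Metallothioneins are small cytosolic proteins that bind zinc and copper through their many cysteines, and zinc enters and leaves cells through membrane transporters. The genes described here are 7 of the 25215 in the table: the metallothionein genes Mt1 and Mt2, the transcription factor gene Mtf1, the exporter gene Slc30a1 and the importer genes Slc39a1, Slc39a6 and Slc39a10. They were chosen by symbol, with their shares of cells, their levels, their differences between conditions and the correlation of Mt1 with Mt2 in these same cells already known. Those values are therefore given as a description, without a test.

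The data were single-cell RNA sequencing of mouse melanoma. C57BL/6 mice were injected under the skin of both flanks with 50000 cells of B16-F10, a transplantable melanoma line, or of R499 (Res499), a line derived from a B16 tumor that relapsed after radiation and anti-CTLA4. Untreated B16, B16 given 200 μg of anti-PD1 (a checkpoint-blocking antibody) on days 5, 8 and 11 (B16PD1) and untreated R499 tumors were taken on day 15, with 2 tumors per condition from 2 mice each. CD45-negative cells were sorted and full-length cDNA was sequenced from single cells in the wells of an ICELL8 chip. Each tumor line is 1 cell line, and sorting against CD45, a marker of immune cells, was done to enrich live tumor cells. Mouse age and sex were not given in the sources used here, and neither was which flank each tumor came from.

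Of 602 cells, 507 with over 1000 genes detected and under 10% mitochondrial TPM were retained, 75 to 91 per tumor. The median number of genes detected ran from 3141 to 3838.5 by tumor and was highest in the B16PD1 tumors. No pair of numbers that names a cell occurred in more than 1 tumor. The melanocyte label of the cells was checked by 7 marker genes: the pigment enzyme gene Tyrp1 was detected in 100% of retained cells, and the least frequent, the lineage factor gene Sox10, in 65.1%. Keratinocyte markers were at 0 in all cells (5 of 5 genes), and of 10 immune, 6 fibroblast and 4 endothelial markers 3, 2 and 2 were at 0, with the most frequent immune marker, Cd79a, in 5.13% of cells and none of the others above that.

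Zinc homeostasis links these genes in a loop. MTF1 is a zinc-finger factor that senses a rise in free zinc and binds metal response elements (MREs) in the promoters of Mt1, Mt2 and Slc30a1. SLC30A1 (ZnT1) exports zinc across the plasma membrane, whereas SLC39A1 (ZIP1), SLC39A6 (ZIP6) and SLC39A10 (ZIP10) bring it in, the last pair as related proteins that can form a complex. Metallothionein genes also respond to glucocorticoids and oxidative stress.

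Mt1 (ENSMUSG00000031765.8) lies at chr8:94179082-94180327 and Mt2 (ENSMUSG00000031762.7) at chr8:94172664-94173568, both on the plus strand of GRCm38 and 5513 bases apart. Each has 3 exons in its first annotated transcript, and their coding sequences are of equal length, 186 bases with the stop codon. These are shown since reads must be divided between the 2 genes, with capitals at the 38 positions that differ (GENCODE vM21):
Mt1 coding sequence: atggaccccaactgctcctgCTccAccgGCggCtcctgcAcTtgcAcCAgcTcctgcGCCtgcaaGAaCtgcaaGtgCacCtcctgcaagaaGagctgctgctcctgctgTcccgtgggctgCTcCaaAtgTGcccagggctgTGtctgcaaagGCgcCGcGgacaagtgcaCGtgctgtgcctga
Mt2 coding sequence: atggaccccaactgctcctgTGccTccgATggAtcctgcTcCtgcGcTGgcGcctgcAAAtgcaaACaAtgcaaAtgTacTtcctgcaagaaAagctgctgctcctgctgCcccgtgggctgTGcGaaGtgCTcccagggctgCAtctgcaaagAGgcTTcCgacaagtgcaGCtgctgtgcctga
The identity was 79.6%, and 34 of 62 codons were the same. Each gene had 20 cysteine codons, and all 20 stood at the same positions. The longest run of identical bases was 20, in the coding sequence and in the whole transcripts alike, so no longer stretch is shared by the pair. An annotated antisense gene, Gm45774 (chr8:94170748-94173412), overlaps Mt2, and no gene of that name is among those in the table. The methods name RSEM at its default settings, which do not use strand. Antisense reads therefore cannot be told apart from Mt2 reads where the 2 genes overlap.

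The promoters are shown since Mt1, Mt2 and Slc30a1 are textbook MTF1 targets. RefSeq windows (GRCm38.p6) from 250 bases before to 50 bases after the annotated start were found for 6 of the 7 genes (Slc39a6 had no entry). They were searched on both strands for the MRE core, TGCACNC or TGCGCNC, which 25.7% of 32851 promoter windows held at least once. The 250 bases before the start are printed, with MRE cores in capitals, for Mt1 (chr8:94178839-94179088, plus strand), Mt2 (chr8:94172368-94172617, plus strand) and Slc30a1 (chr1:191906531-191906780, plus strand):
Mt1 promoter: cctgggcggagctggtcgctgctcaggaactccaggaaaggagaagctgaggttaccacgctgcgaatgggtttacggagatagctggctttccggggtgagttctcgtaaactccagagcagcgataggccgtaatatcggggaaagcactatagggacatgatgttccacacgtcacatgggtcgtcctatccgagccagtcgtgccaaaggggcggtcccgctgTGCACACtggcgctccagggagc
Mt2 promoter: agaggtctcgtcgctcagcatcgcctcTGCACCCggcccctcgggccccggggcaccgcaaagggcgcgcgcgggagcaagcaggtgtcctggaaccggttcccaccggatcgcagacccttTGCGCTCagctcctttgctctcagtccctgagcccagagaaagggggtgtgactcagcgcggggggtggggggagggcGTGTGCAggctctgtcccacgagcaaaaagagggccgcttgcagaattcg
Slc30a1 promoter: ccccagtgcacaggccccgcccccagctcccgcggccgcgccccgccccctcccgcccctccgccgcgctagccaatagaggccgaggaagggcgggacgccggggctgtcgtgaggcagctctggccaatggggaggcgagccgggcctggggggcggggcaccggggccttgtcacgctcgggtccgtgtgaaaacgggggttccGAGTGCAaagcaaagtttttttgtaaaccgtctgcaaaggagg
The whole Mt1 window held 3 MRE cores: TGCACAC from -23 to -17 and, past the annotated start, TGCACTC from 3 to 9 and TGCGCTC from 21 to 27, counted from 1 at the start. In the Mt2 window there were 4, of which 3 lay before the start (TGCACCC from -223, TGCGCTC from -128, and TGCACAC on the minus strand from -50) and 1 past it. Slc30a1 had 2, TGCACTC from -43 and TGCGCTC from 31, both on the minus strand. At least 2 MRE cores occurred in 7.11% of all windows, at least 3 in 1.97% and at least 4 in 0.517%. No MRE core was found in the windows of Mtf1, Slc39a1 or either annotated start of Slc39a10. The antioxidant response element core TGACNNNGC occurred once each in the windows of Mt2 (TGACTCAGC, from -79), Slc30a1 (TGACAAGGC on the minus strand, from -82) and Slc39a1 (TGACTGAGC on the minus strand, from -63), against 12.4% of all windows with at least 1. The Mt2 element had no base in common with its MRE cores. A match is a run of letters and not a measured binding site. The counts rest on the annotated starts, and bases outside these windows were not searched, so elements there would be missed.

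Levels are in TPM, the transcript abundances that the authors scaled for transcript length and to the same total in every cell, so genes can be ordered. Mt1 was the highest of the 7 in each of the 6 tumors, with a mean of 5201 TPM over all retained cells, or 0.52% of all transcripts, and it ranked 16th among all genes. Mt2 followed at 925 TPM (rank 188), then Slc39a1 at 90.4, Slc39a10 at 40.7, Slc39a6 at 30.5, Mtf1 at 12.7 and Slc30a1 at 0.544 TPM. The tumor mean of Mt1 was 4.84 to 6.96 times that of Mt2, and Mt2 was 8.41 to 13.6 times Slc39a1. Slc39a1 was above Slc39a10 in all 6 tumors, by as little as 1.10 times in tumor B16007. Neighbors in the order did not differ beyond their spread over tumors for Slc39a10 and Slc39a6 (Slc39a10 higher in 5 of 6 tumors, ratio 0.904 to 1.95), or for Slc39a6 and Mtf1 (5 of 6 tumors, ratio 0.721 to 5.46). Mtf1 exceeded Slc30a1 in all 6.

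**Figure D1:**
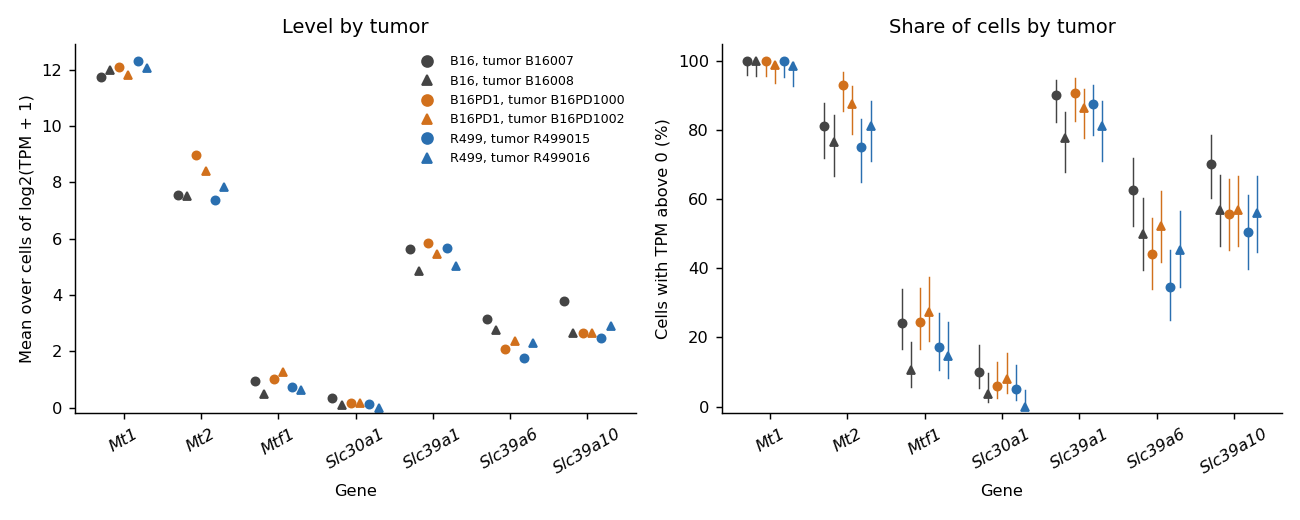
Level (left, mean over cells of log2(TPM + 1)) and share of cells with TPM above 0 (right, percent, bars are 95% Wilson intervals) of the 7 genes in each of the 6 tumors, colored by condition. Mt1 was in nearly every cell at 11.7 to 12.3 log2 units, and Mt2 lay highest in the 2 B16PD1 tumors.

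Mt1 was detected in 505 of 507 cells (99.6%). Its mean log2(TPM + 1) was 11.73 in B16007, 11.99 in B16008, 12.08 in B16PD1000, 11.82 in B16PD1002, 12.30 in R499015 and 12.08 in R499016, tumors that are named for their condition and keep this order in every list of values that follows. Both R499 tumors were above both B16 tumors, and the B16PD1 tumors overlapped with each of the other conditions. The overlap with R499 was narrow: R499016, with 1 cell at 0, stood at 12.078 and B16PD1000 at 12.084. Among cells above the overall median of 3547 genes detected, R499 did not overlap with B16PD1 (difference 0.46) or B16 (0.42). Among cells at or below it, both differences came with overlap (0.05 and 0.23). On the scale of mean TPM untreated B16 stood at 4312 and 4837, treated B16 at 5172 and 4868 and R499 at 6431 and 5794, so that the R499 tumors were the 2 highest. The median cell had 3954 TPM in untreated B16, 4391 TPM after anti-PD1 and 5597 TPM in R499. The difference R499 minus B16 was 0.33 ± 0.18 (SE, log2 units) and that of B16PD1 minus B16 was 0.09 ± 0.18. The first was 0.20 without B16007 and 0.22 without R499015, and the second turned to -0.04 without B16007 and without B16PD1000. In the 95 cells that were not retained, Mt1 was detected in 92.6% with a median of 5188 TPM. Its mean log2(TPM + 1) there was 11.52, against 11.99 in the retained cells. By tumor this mean ran from 9.82 in the 12 such cells of B16PD1002 to 12.55 in the 25 of R499016.

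Mt2 was detected in 419 of 507 cells (82.6%). The share was 81.3% and 76.7% for untreated B16, 93.0% and 87.5% for B16PD1 and 75.3% and 81.3% for R499. Its mean log2(TPM + 1) was 7.56 and 7.51 untreated, 8.98 and 8.42 after anti-PD1, and 7.39 and 7.82 for R499. Both B16PD1 tumors were above the other 4 tumors in share and in this level, while R499 and B16 overlapped. The difference was 1.17 ± 0.30 for B16PD1 minus B16, -1.10 ± 0.30 for R499 minus B16PD1 and 0.07 ± 0.30 for R499 minus B16 (SE).

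The Mt2 difference lay in cells at 0 rather than in the level of the cells that had it. Mean TPM was 909 ± 127 for untreated B16, 965 ± 40.1 for B16PD1 and 901 ± 32.7 for R499 (SD, n = 2 tumors each). The untreated B16 tumors, at 819 and 999 TPM, lay on either side of all the others. Taken as log2 of each tumor's mean TPM plus 1, the B16PD1 minus B16 difference was 0.09 in place of 1.17. Where Mt2 was detected, its median was 683 and 881 TPM untreated, 794 and 890 TPM after anti-PD1, and 914 and 847 TPM for R499. Mt2 was an on-or-off measurement: the lowest value above 0 was 50.2 TPM, and 96.9% of the cells with Mt2 were above 100 TPM.

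The number of genes detected moved with Mt2. Among cells at or below the overall median of 3547 genes, Mt2 was detected in 74.4% and 59.2% of untreated B16 cells, 84.2% and 73.7% of B16PD1 cells and 61.2% and 64.9% of R499 cells. Above that median the shares were 87.5% and 100%, 100% and 98.0%, and 96.9% and 97.4%. In the lower class the B16PD1 minus B16 difference of the mean log2(TPM + 1) was 1.31 and the tumors of the 2 conditions did not overlap. In the upper class it was 0.59 with overlap, since B16008 stood at 9.56, the B16PD1 tumors both at 9.38 and B16007 at 8.01. The difference R499 minus B16PD1 was -1.67 in the lower class and 0.01 in the upper. When limma also took in the genes detected per tumor, the B16PD1 minus B16 difference of Mt2 was 1.02 in place of 1.17. After subtracting the mean of each cell it was 1.13, and in cells that had over 2000 genes it was 1.23. For R499 minus B16PD1 these values were -0.71, -0.96 and -0.89 in place of -1.10. How much of the Mt2 difference goes with genes detected was not tested beyond these values.

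**Figure D2:**
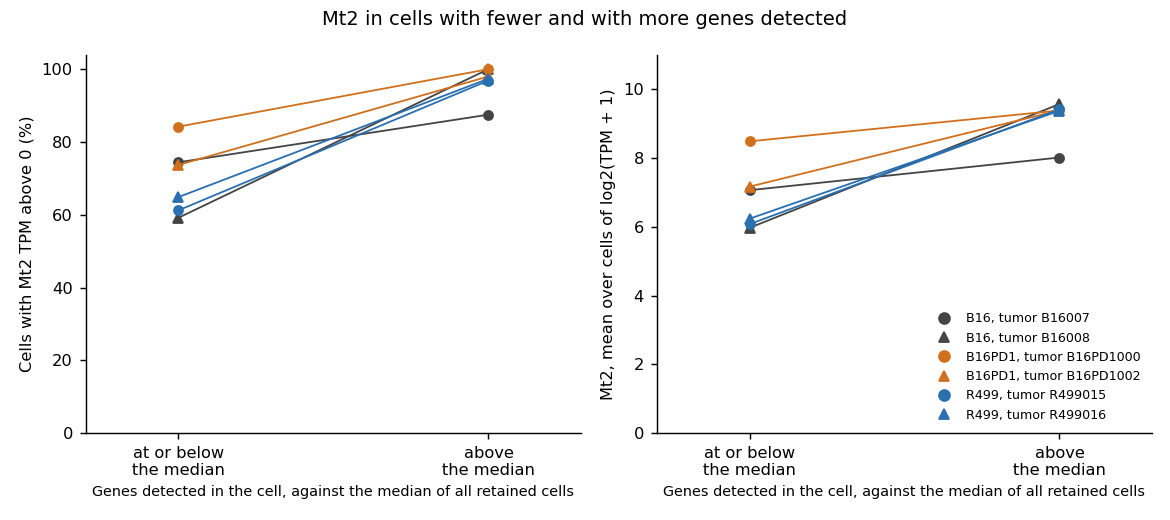
Share of cells with Mt2 (left, percent) and mean log2(TPM + 1) of Mt2 (right) in each tumor, for cells at or below and above the median of 3547 genes detected; lines join the classes of a tumor. The tumors spread from 59.2% to 84.2% in the lower class and, apart from B16007 at 87.5%, lay between 96.9% and 100% in the upper.

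Mt1 was found without Mt2 in 86 cells, both were found in 419, neither in 2 and Mt2 alone in 0. Cells with Mt1 alone had a median of 2482 genes detected against 3871 in cells with both. Their Mt1 was still high, with a median of 3525 TPM against 4782 TPM, and it reached 12324 TPM in 1 cell. In the cells with both genes, Mt2 made up a median of 15.0% of their summed TPM, with tumor medians from 12.6% to 17.4%, and 17 cells had more Mt2 than Mt1. Within a tumor, Mt1 and Mt2 had a Pearson r over cells of 0.04 to 0.45 (median 0.28, 6 tumors of 75 to 91 cells) and a Spearman rho of 0.19 to 0.55 (median 0.35). By tumor the Pearson r was 0.21 and 0.30 untreated, 0.04 and 0.45 after anti-PD1, and 0.26 and 0.37 for R499. Over cells with both genes it was 0.15 to 0.48, and after regressing each cell's number of detected genes out of both it was 0.05 to 0.47. The cells of a tumor share their animal and preparation, and Mt2 itself had an r of 0.18 to 0.47 with the number of genes detected, while that of Mt1 was -0.06 to 0.29. These correlations are weak, and the 2 B16PD1 tumors alone spanned the whole range of the Pearson r over all cells. Over cells with both genes the r was 0.15 and 0.22 untreated, 0.33 and 0.36 after anti-PD1, and 0.42 and 0.48 for R499.

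**Figure D3:**
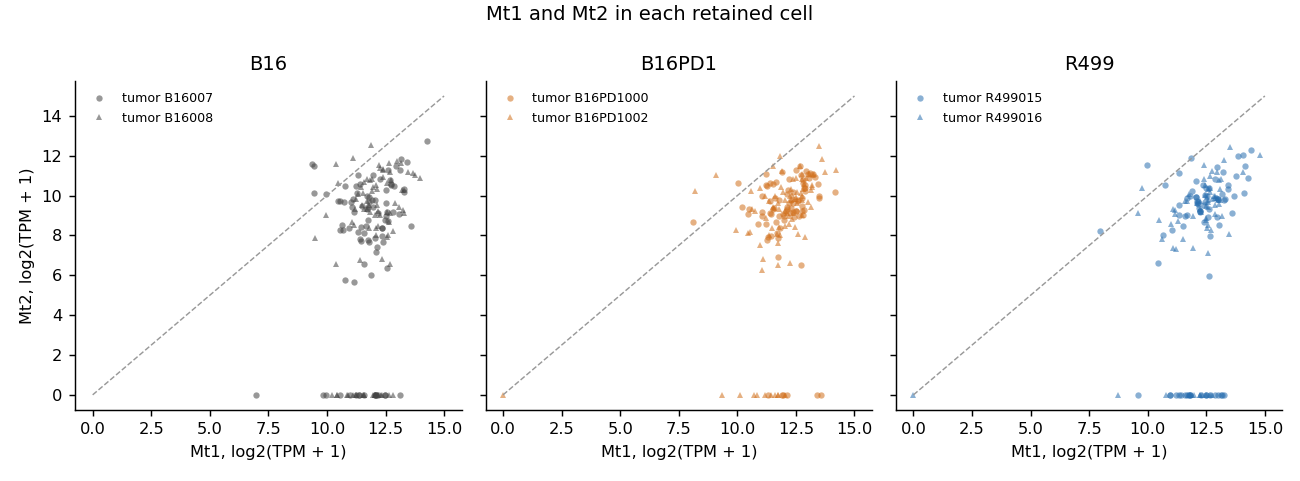
Mt2 against Mt1 in each of the 507 retained cells, both as log2(TPM + 1), by condition, with a dashed line where the genes are equal. The 86 cells with Mt1 alone lie along the bottom of the panels at high Mt1, and 17 cells lie above the line with both genes detected.

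The genes whose pattern over cells was most like that of Mt1 were taken as those with the highest median r within the 6 tumors among 8138 genes, after the same regression. They were Lgals3 (a galectin; median r 0.33, range 0.08 to 0.47), Selenbp1 (a selenium-binding protein; 0.31, 0.20 to 0.45), Mif (a cytokine; 0.31, 0.05 to 0.54), Slc2a1 (the glucose transporter GLUT1; 0.27, 0.08 to 0.34) and Prelid2 (0.27, 0.09 to 0.37). Mt2 came 24th in this order, at 0.21. For Mt2 the first was Mt1 at 0.21, followed by Ndrg1 (0.21, -0.08 to 0.34), Lars2 (a mitochondrial leucyl-tRNA synthetase; 0.21, -0.06 to 0.37), Rassf1 (0.21, 0.03 to 0.28) and Tpi1 (a glycolytic enzyme; 0.20, -0.06 to 0.24). Ndrg1 was also on the list of genes known to respond to MTF1. Selenow and Csrp1 of that list were not among the first 10 genes for Mt1 or Mt2. Gclc, in 3.94% of cells, was too rare to be compared. Among melanocyte markers the median r with Mt1 ran from -0.13 for Tyr to 0.05 for Sox10. The nearest genes in the table on either side of the pair were Mt3, 18517 bases before Mt2 and detected in 2 cells, and Nup93, a nuclear pore gene 34236 bases after Mt1, detected in 55.6% of cells. The neuronal metallothionein gene Mt3 and the epithelial Mt4, at 0 cells, thus added almost nothing to the family's total.

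Mtf1 (chr4:124802104-124849800, plus strand, 11 exons) was detected in 101 of 507 cells (19.9%). The shares were 24.2% and 10.5% untreated, 24.4% and 27.3% after anti-PD1, and 17.3% and 14.7% for R499. Its mean log2(TPM + 1) was 0.95 and 0.50, 1.04 and 1.26, and 0.73 and 0.64 in the same order. The B16PD1 tumors were the 2 highest, with B16007 next, and R499 lay between the B16 tumors. The difference B16PD1 minus B16 was 0.43 ± 0.22, and it was 0.65 without B16007 and 0.20 without B16008. Single cells weighed much in its mean TPM: the highest cell held 17.8% to 44.6% of a tumor's sum. Over cells, Mtf1 had a median r of 0.03 with Mt1 (-0.20 to 0.08) and of 0.05 with Mt2 (-0.26 to 0.15), weak values for a gene at 0 in 406 of the 507 cells.

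Slc30a1 (chr1:191906767-191913247, plus strand, 2 exons) was the rarest of the 7, in 28 of 507 cells (5.52%). It was found in 9 cells of B16007 and 3 of B16008, in 5 and 7 cells of the B16PD1 tumors, in 4 cells of R499015 and in 0 of the 75 cells of R499016, which allows a share of cells with reads of up to 4% (3 of the cells counted) or, as the Wilson bound, 4.87%. Mean TPM was 1.27 and 0.377 untreated, 0.736 and 0.342 after anti-PD1, and 0.429 and 0 for R499. The conditions overlapped on this scale, while the mean log2(TPM + 1) of the B16PD1 tumors (0.18 and 0.16) was above that of the R499 tumors (0.15 and 0), a gap that rests on 12 cells against 4. All 28 cells with Slc30a1 also had Mt1, and 24 had Mt2, genes found in 99.6% and 82.6% of all retained cells. In the 95 cells not retained it was found in 10.5%, among them 2 of the 25 from R499016. The bounds given for that tumor therefore hold for its retained cells only.

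Slc39a1 (chr3:90248172-90253612, plus strand, 4 exons) was the most widespread importer gene, detected in 435 cells (85.8%), and was in 77.9% to 90.7% of the cells of each tumor. Its mean log2(TPM + 1) was 5.64 and 4.86 untreated, 5.84 and 5.46 after anti-PD1 and 5.67 and 5.03 for R499, and the 3 conditions overlapped. The B16 tumors alone differed by more than any condition means did. Its pseudogene Slc39a1-ps was listed at 0 in all cells. The r of Slc39a1 with the number of genes detected, 0.27 to 0.48, was the highest of the 7 by median (0.36).

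Slc39a6 (chr18:24579881-24603817, minus strand, 10 exons) was detected in 246 cells (48.5%). The shares were 62.6% and 50.0% untreated, 44.2% and 52.3% after anti-PD1 and 34.6% and 45.3% for R499, and those of B16PD1 overlapped with both. Its mean log2(TPM + 1) was 3.17 and 2.74 untreated, 2.10 and 2.36 after anti-PD1, and 1.77 and 2.31 for R499. Both B16 tumors were above the other 4. The difference was -0.73 ± 0.33 for B16PD1 minus B16 and -0.92 ± 0.33 for R499 minus B16, and these 2 comparisons share the B16 tumors. Unlike that of Mt2, this difference stood in both classes of genes detected without overlap: -1.08 and -0.57 for B16PD1 minus B16, and -1.10 and -0.66 for R499 minus B16, in the lower and the upper class. On mean TPM, however, B16 (44.6 and 35.1) and R499 (28.0 and 37.2) overlapped. The highest cell of R499015, at 1201 TPM, held 53.0% of that tumor's sum, and without it the tumor's mean was 13.3 TPM.

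Slc39a10 (chr1:46807544-46892852, minus strand, 10 exons) was detected in 294 cells (58.0%). Its mean log2(TPM + 1) was 3.80 and 2.65 untreated, 2.67 and 2.64 after anti-PD1, and 2.48 and 2.90 for R499. Tumor B16007 alone was high, with a mean of 81.0 TPM against 26.7 to 38.1 in the other 5 tumors and with 70.3% of its cells positive against 50.6% to 57.0%. The B16PD1 minus B16 difference of -0.57 ± 0.38 was 0.01 without B16007, and the R499 minus B16 difference of -0.53 ± 0.38 was 0.04 without it. Within the classes of genes detected, B16007 stood alone in the lower class (3.87 against 1.76 to 2.69), whereas in the upper class it was at 3.74 with R499015 at 3.59. Both B16 tumors were above both B16PD1 tumors within each class, but B16008 only narrowly. It stood at 2.15 against 2.08 in B16PD1002 in the lower class, and at 3.310 against 3.303 in B16PD1000 in the upper. The B16PD1 minus B16 differences, -1.04 in the lower and -0.34 in the upper, therefore rested mostly on B16007. The partner genes Slc39a6 and Slc39a10 were found together in 167 cells (32.9%), where the product of their shares over all cells is 28.1%. Their r over cells was 0.01 to 0.31 by tumor, and -0.05 to 0.27 after the same regression on genes detected.

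**Figure D4:**
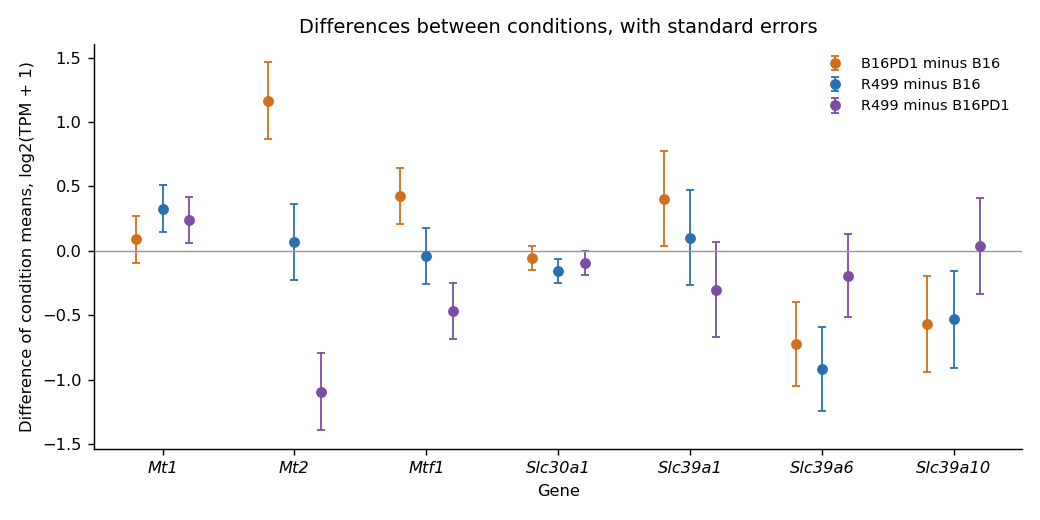
Difference of condition means of log2(TPM + 1) for each of the 7 genes in the 3 comparisons, with the standard error from limma as bars (2 tumors per condition). Mt2 stands at 1.17 in B16PD1 minus B16 and -1.10 in R499 minus B16PD1, which share the B16PD1 tumors, and Slc39a6 at -0.73 and -0.92 in the 2 comparisons with B16.

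By the count of tumors, 2 members were higher and 1 lower in both B16PD1 tumors than in both B16 tumors (Mt2, Mtf1 and Slc39a6). Of 11264 genes tested, 17.9% were higher and 15.4% lower in this sense. In R499 against B16, 1 was higher (Mt1) and 1 lower (Slc39a6), where 11.6% of genes were higher and 30.1% lower. In R499 against B16PD1, 0 were higher and 3 lower (Mt2, Mtf1 and Slc30a1), where 10.2% were higher and 31.3% lower. At an adjusted p under 0.05 in limma, the share of genes called was 0% for B16PD1 minus B16 (528 genes at an unadjusted p under 0.05), 0.0621% for R499 minus B16 and 0.071% for R499 minus B16PD1, with 7 and 8 genes, and 0 members were among them. Since the members were selected on these comparisons, nothing is read from their counts. Cells with any immune marker made up 7.69% and 4.65% of untreated B16, 9.30% and 10.2% of B16PD1 and 8.64% and 9.33% of R499, so both untreated B16 tumors were below the other 4, and their part in the Mt2 difference was not tested. The summed level of these markers, 0.26 to 0.64 log2 units over 10 genes, overlapped between the 3 conditions.

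Other genes of metal handling show where these sit. Of the other 9 zinc exporter genes of the SLC30 family, 3 were at 0 in all cells and Slc30a2 was in 4 cells. The 3 highest by mean TPM, all transporters of the secretory pathway, were Slc30a6 (in 48.1% of cells, 24.5 TPM), Slc30a7 (53.8%, 24.1 TPM) and Slc30a5 (16.4%, 10.4 TPM). Each was in more cells than the plasma-membrane exporter gene Slc30a1 at 5.52%. Slc30a9 was in more cells (21.5%) than Slc30a5, whose highest cell was at 2156 TPM. Of the other 11 importer genes of the SLC39 family, Slc39a7 (which releases zinc from the endoplasmic reticulum; 54.2%, 40.2 TPM), Slc39a9 (a Golgi protein; 53.8%, 27.5 TPM) and Slc39a13 (20.3%) were highest. Slc39a8 and Slc39a12 were at 0, and Slc39a4 and Slc39a5 were in 1 cell each.

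**Figure D5:**
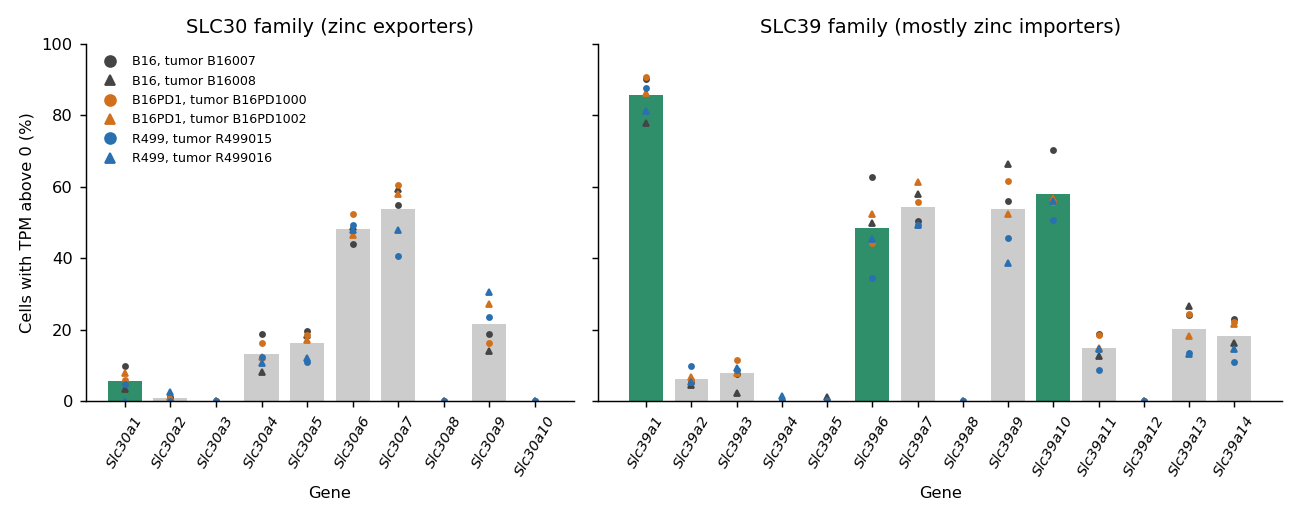
Percent of the 507 retained cells with TPM above 0 for the 10 SLC30 and 14 SLC39 genes (bars, green for the 4 transporters described above), with points for the 6 tumors. Slc39a1 is the most frequent at 85.8%, and Slc30a1 is at 5.52%.

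In limma over all 11264 genes, 0 of the 38 tested genes of these and the following lists passed an adjusted p of 0.05 in any comparison, and 3 had an unadjusted p under 0.05 after anti-PD1, 8 in R499 against B16 and 7 in R499 against B16PD1. Over all 11264 genes, 528, 1188 and 1149 did so in the same order. Of the other exporter genes, 0 of 5 tested passed, and they went both ways in R499 minus B16. Slc30a7 was at -0.84 ± 0.29 (adjusted p 0.36) and Slc30a5 at -0.51 ± 0.17 (0.36). Slc30a9 was at 0.48 ± 0.22 (0.45) and Slc30a6 at 0.25 ± 0.32 (0.812). Both R499 tumors were above both B16 tumors in 2 of these exporters and below in 2, where 11.6% and 30.1% of all genes were. Of the importer genes, 0 of 7 passed, with Slc39a9 at -0.93 ± 0.31 (0.349), and 1 was above and 4 below in this sense. The median difference was -0.05 over these exporters and -0.26 over these importers in R499 minus B16, and -0.07 over all genes tested. In B16PD1 minus B16 the medians were -0.04 and -0.01 against 0.01 over all genes, and in R499 minus B16PD1 they were -0.01 and -0.26 against -0.09.

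MTF1 responsive genes other than the members (Selenow, Csrp1, Ndrg1 and Gclc) had 0 of 4 passing in each comparison. Their highest members by TPM were Selenow (a selenoprotein; 68.2% of cells, 186 TPM), Csrp1 (a LIM-domain protein; 82.6%, 108 TPM) and Ndrg1 (54.6%, 105 TPM). The list's median difference was 0.10 in B16PD1 minus B16, 0.20 in R499 minus B16 and -0.02 in R499 minus B16PD1. Selenow stood at 0.58 ± 0.41 in B16PD1 minus B16 (limma adjusted p 0.989), but its tumors overlapped. Its mean log2(TPM + 1) was 6.13 in B16PD1000 and 4.76 in B16PD1002, against 4.93 and 4.79 untreated.

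For copper, which metallothioneins also bind, 0 of 9 genes passed. Sod1 (the copper-zinc superoxide dismutase; 848 TPM), Cox17 (a copper chaperone for cytochrome oxidase; 453 TPM) and Atox1 (a copper chaperone; 387 TPM) were the highest. Atox1 was above both B16 tumors in both R499 tumors, with a difference of 0.77 ± 0.32 that did not pass (limma adjusted p 0.403). Median differences of the list were 0.03, -0.16 and -0.06 in the order of the comparisons above.

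Inducers of metallothioneins other than metals were read through their own target lists. In the NRF2 list, the response to oxidative stress, 0 of 8 genes passed, and Hmox1 (heme oxygenase; 140 TPM), G6pdx (69.6 TPM) and Gclm (40.9 TPM) were highest. Hmox1 stood at -1.18 ± 0.34 in R499 minus B16 (limma adjusted p 0.286) and was lower in both R499 tumors (4.49 and 4.20) than in both B16 tumors (5.22 and 5.82). Both B16PD1 tumors were above both B16 tumors in 4 of the 8 genes and below in 1 (Hmox1), and both R499 tumors were below both B16PD1 tumors in 6 of 8, against the background shares given above. Nqo1, a quinone reductase gene named after its values were seen, had the lowest unadjusted p of the list after anti-PD1: 0.34 and 0.27 untreated against 0.89 and 0.64 treated, a difference of 0.46 ± 0.15 (limma adjusted p 0.989), and -0.40 ± 0.15 in R499 minus B16PD1 (0.385). Gclc is also on the MTF1 list. The NRF2 list's median difference was 0.13 in B16PD1 minus B16, -0.19 in R499 minus B16 and -0.48 in R499 minus B16PD1. In the glucocorticoid list 0 of 6 tested genes passed, and Sgk1 (33.9 TPM), Dusp1 (32.0 TPM) and Tsc22d3 (24.4 TPM) were highest. Dusp1, a phosphatase gene, was at -1.35 ± 0.39 in R499 minus B16 and -1.34 ± 0.39 in R499 minus B16PD1 (adjusted p 0.281 and 0.31, limma). That list's medians were -0.05, -0.13 and -0.14 in the 3 comparisons.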

How the data were processed

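Single cells of 6 tumors were measured, and the deposited table holds TPM values per gene and cell, which the authors made with STAR alignment (mm10) and RSEM. TPM have the same sum in each cell, so reads per cell are unknown, and the study's filter on mapped reads could not be applied. Its other filters were: cells with over 1000 genes detected and under 10% mitochondrial TPM, and genes in more than 5 retained cells. No doublets were removed.

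Values were log2(TPM + 1), on which changes of low genes are understated, and were averaged over the cells of a tumor. Tumors, not cells, were the replicates. Conditions were compared with limma (3.58.1, R 4.3.3, trend, all 6 tumors in 1 fit, Benjamini-Hochberg over 11264 genes), tested on simulated data. Which labelled sample each tumor is within its condition was not given. The methods give 2 mice per condition, so p-values measure the spread between mice. Shares have 95% Wilson intervals that cover counting error only. TPM of low genes rest on few molecules.

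The 7 genes, the lists and the motifs were chosen with earlier results of these data known. Named were the 7 genes, the 3 highest by mean TPM and any called gene of each list, 5 genes most like Mt1 and Mt2 (in at least 10% of cells), and the neighbors of the pair. Genes at or near 0 were also named. The alternatives were pseudocounts of 0.1 and 10, other filters, centering, a covariate, no trend and leaving out each tumor. Python 3.11.15 and matplotlib 3.10.9 drew the plots. Positions and coding sequences came from GENCODE vM21 (GRCm38, the same assembly as mm10) and promoters from RefSeq.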

Additional observations from a re-analysis of the deposited data

How the results depend on the processing

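No paired analysis was possible because the columns name tumors and carry none of the replicate numbers of the labels. The number of genes called moved with the settings. B16PD1 minus B16 gave 0 genes, but 13 with no filter on genes and 0 to 2 with 1 tumor left out (2 without B16007). R499 minus B16 gave 7 genes, but 11 and 3 with pseudocounts of 0.1 and 10, 0 on log2 of a tumor's mean TPM, 13 with genes in more than 10 cells, 22 with no filter on cells, 20 with over 2000 genes detected, 28 with each cell's mean subtracted, 0 with genes detected as a covariate, 0 without a trend, and 0 to 10 with 1 tumor left out (0 without B16008, 4 without R499015). R499 minus B16PD1 gave 8, but in the same order 13, 3, 0, 15, 16, 14, 22, 0 and 0, and 14 with no filter on genes and 3 to 8 with 1 tumor left out (3 without B16PD1000, 3 without R499015). With a tumor left out, the lone tumor of a condition is assumed to vary like the others. No list gene was called in any of the 17 alternatives of each comparison.

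Among the 7 genes, the Mt2 difference B16PD1 minus B16 kept its sign in 17 of 17 alternatives (0.09 to 1.54). So did Slc39a6 in B16PD1 minus B16 (-1.03 to -0.43) and in R499 minus B16 (-1.45 to -0.29). Many of these outcomes were fixed: gene filters, no trend and leaving out a tumor of the third condition cannot move a difference. Where conditions do not overlap, leaving out any of their tumors cannot turn the sign. Mt1 in R499 minus B16 stayed above 0 (0.10 to 0.47), lowest with genes detected as a covariate, while in B16PD1 minus B16 it had the other sign in 3 of 17 (lowest -0.04), and Slc39a10 in R499 minus B16 turned to 0.43 with that covariate. The median r of Mt1 with Mt2 was 0.15 to 0.35 over 15 alternatives. The depth of each cell is unknown, so a TPM of 0 cannot be told apart from too few reads.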
